A study of Mus musculus with 4 samples.

Results

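Ccl28 and the genes of IgA secretion were followed through 4 single-cell RNA-Seq libraries of mouse kidney. The 7 genes, of 32285 listed in the files, were taken by symbol, and all 7 had UMIs (counted RNA molecules) in every library. They are the chemokine Ccl28, its receptor Ccr10, the antibody transporter Pigr, the joining chain Jchain, the IgA heavy chain Igha, the kappa light chain Igkc and the plasma cell protein Mzb1. They were selected with their levels in these libraries in view, so their differences between libraries are a description and carry no test.

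IgA is the main antibody of secretions. Plasma cells join IgA units through the J chain into polymers, and the polymeric immunoglobulin receptor, the product of Pigr, carries these across an epithelium into the lumen. The chemokine CCL28 is made by epithelia of mucosal surfaces and glands and attracts IgA plasma cells that bear CCR10.

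All mice were males of the C3H strain, 18 weeks old at harvest. They received either ND (normal diet) or HFD (high-fat diet, with 60% of calories from fat) for 8 weeks from 10 weeks of age, and were either WT or SP. SP (Sweet Pee) mice have a missense mutation in Slc5a2, which encodes the glucose cotransporter SGLT2, and they share the C3H background of the WT mice. Minced kidney was digested to single cells, and 1 library was made for each of the 4 conditions. The number of mice behind a library is not given in the sources used here, and diet or genotype cannot be told apart from differences between mice or between preparations. There is no replicate error, and every interval below is a 95% interval that covers counting error only.

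The libraries held 90728590 to 115117649 UMIs, and 6389 to 9924 cells per library were kept, with median depths of 3428 to 5321 UMIs. Each pair of libraries shared 54 to 77 deposited barcodes and 10 to 38 kept ones. Slc5a2 was at 161 CPM (UMIs per 1000000) in WT-ND and 101 in WT-HFD, against 22.2 in SP-ND and 23.3 for SP-HFD. The WT-HFD library stood apart, since clustering without integration placed 2914 of its 8947 cells in 1 cluster of 2968 cells. This cluster was led by Car3, Dnase1 and Hsd11b1, met no rule for a cell type and was left unnamed.

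In GRCm38, Ccl28 (ENSMUSG00000074715) lies at chr13:119623819-119654359 on the plus strand and its receptor Ccr10 at chr11:101172997-101175443 on the minus strand. Pigr is at chr1:130826684-130852249 (plus) and Jchain at chr5:88519809-88527891 (minus). The constant region genes Igha and Igkc are at chr12:113254830-113260236 (minus) and chr6:70726435-70726966 (plus). The RefSeq promoter table (GRCm38.p6) held 3 of the 7 genes, and the 250 bases before each start are printed because they belong to the ligand, the transporter and the chain that joins IgA, whose levels behaved differently. They cover chr13:119623569-119623818, chr1:130826434-130826683 and chr5:88527898-88528147 and run 5′ to 3′ on the strand of the gene, with capitals for the motifs that were found.
Ccl28: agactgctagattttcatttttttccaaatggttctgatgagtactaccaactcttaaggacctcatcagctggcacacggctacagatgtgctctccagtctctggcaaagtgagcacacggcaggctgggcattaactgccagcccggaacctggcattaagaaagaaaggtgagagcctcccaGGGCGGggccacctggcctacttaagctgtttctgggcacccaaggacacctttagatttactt
Pigr: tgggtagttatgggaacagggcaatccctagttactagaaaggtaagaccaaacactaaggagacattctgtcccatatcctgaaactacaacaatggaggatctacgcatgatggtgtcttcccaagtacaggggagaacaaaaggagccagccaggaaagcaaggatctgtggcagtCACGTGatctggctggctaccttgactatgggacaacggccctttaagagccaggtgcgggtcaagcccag
Jchain: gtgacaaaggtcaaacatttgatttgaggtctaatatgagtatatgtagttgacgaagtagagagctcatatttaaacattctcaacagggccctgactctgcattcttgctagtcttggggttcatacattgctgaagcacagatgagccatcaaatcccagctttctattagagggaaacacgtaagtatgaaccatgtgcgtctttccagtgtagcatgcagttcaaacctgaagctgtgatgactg
The search covered 4 motifs on both strands. The GC box GGGCGG stands before Ccl28 and occurs in 32.7% of 32851 promoters of this length. The E-box CACGTG stands before Pigr and occurs in 6.02%. Neither these nor the TATA box TATAAA (12.4% of promoters) and the octamer ATGCAAAT (1.60%) are in the Jchain window.

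Ccl28, the ligand, was higher on HFD in both genotypes and lowest in SP-ND. In WT its level went from 23.2 CPM on ND (21.9 to 24.6, 1184 UMIs) to 115 CPM on HFD (112 to 118, 7041 UMIs). In SP it went from 3.00 CPM (2.53 to 3.54, 140 UMIs) to 62.2 CPM (59.9 to 64.6, 2712 UMIs). HFD stood above ND by a log2 ratio of 2.31 in WT (2.22 to 2.40), or 4.95-fold, and 4.37 in SP (4.13 to 4.63), or 20.7-fold. The intervals of the libraries did not overlap. They cover counting error only, and Ccl28 was selected on these contrasts, so nothing is read from this.

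SP-ND stood below WT-ND for Ccl28, with a log2 ratio of -2.95 (-3.21 to -2.70). On HFD, SP was below WT by a smaller amount, at -0.88 (-0.95 to -0.82). The median gene was itself shifted by 0.11 between the ND libraries and by 0.19 between the HFD libraries. Scaled by the median ratio of genes instead of total UMIs, the HFD value of Ccl28 was -1.06 and so past 2-fold.

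Ccr10, the receptor, was sparse. It went from 1.00 CPM (51 UMIs) to 5.87 CPM (360 UMIs) with HFD in WT, and from 0.43 CPM (20 UMIs) to 9.20 CPM (401 UMIs) in SP, with log2 ratios of 2.55 (2.13 to 3.01) and 4.42 (3.78 to 5.15). Unlike Ccl28, it was highest in SP-HFD.

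Pigr, the transporter, changed least. It was at 77.7 CPM in WT-ND and 76.5 in SP-ND, and at 61.4 in WT-HFD and 66.9 in SP-HFD. The HFD to ND log2 ratio was -0.34 in WT (-0.41 to -0.28) and -0.19 in SP (-0.26 to -0.12), so both HFD libraries lay slightly lower. Between genotypes it was -0.02 on ND (-0.09 to 0.04) and 0.12 on HFD (0.05 to 0.19), and the latter turned to -0.05 when scaled by the median ratio of genes.

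The antibody genes had the widest range. Jchain went from 365 to 1940 CPM with HFD in WT and from 22.9 to 3346 CPM in SP. Igha went from 580 to 2695 CPM in WT and from 40.7 to 4309 CPM in SP. For Igkc these steps were 1640 to 9121 CPM and 178 to 14104 CPM. Mzb1, a protein of the endoplasmic reticulum that helps antibody assembly, went from 14.3 to 81.7 CPM and from 2.04 to 132 CPM. All 4 genes ranked the libraries alike, with SP-HFD highest, then WT-HFD, WT-ND and SP-ND.

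**Figure D1:**
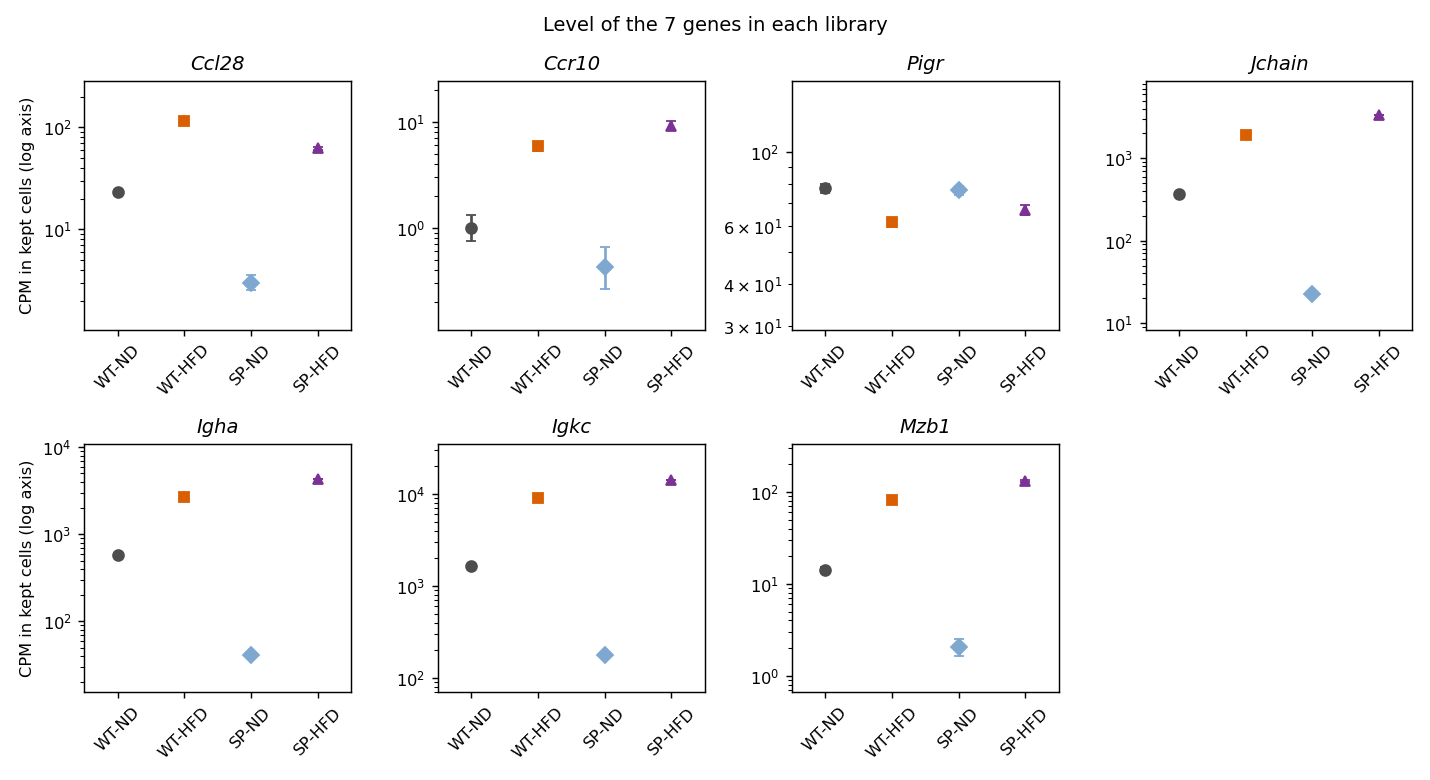
Level of each gene in CPM (log axis, with its own range in each panel) in the 4 libraries, 1 point per library with its 95% Poisson interval. Jchain, Igha, Igkc, Mzb1 and Ccr10 are highest in SP-HFD and lowest in SP-ND, Ccl28 is highest in WT-HFD (115 CPM), and Pigr stays between 61.4 and 77.7 CPM.

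In both diet contrasts 6 of the 7 genes were over 2-fold higher on HFD. Among genes with at least 20 UMIs, 5.89% of 16462 were past 2-fold in either direction in WT and 6.63% of 16339 in SP. From WT-ND to SP-ND 6 of the 7 were over 2-fold lower, beside 4.99% of 16225 genes past 2-fold. From WT-HFD to SP-HFD 0 of the 7 were past 2-fold when scaled to total UMIs, beside 4.25% of 16530 genes. The exception among the 7 in the first 3 contrasts was Pigr. The genes were selected on these contrasts, so nothing is read from the counts.

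Cells with a UMI were then set against the number expected if the UMIs of a gene had fallen on cells by depth alone, as free RNA would. A ratio of 1 means such a spread, and a lower one means UMIs gathered in fewer cells. Ccl28 was in 561 cells of WT-ND (0.53 of the expected number) and 2070 of WT-HFD (0.51), but 67 of SP-ND (0.49) and 625 of SP-HFD (0.31). Pigr lay between 0.34 and 0.50 and Ccr10 between 0.34 and 0.65.

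Jchain had lower ratios than these 3 genes in both ND libraries. The ratio also depends on the number of UMIs, which in WT-ND was 18610 for Jchain and 51 for Ccr10. It therefore does not rank how tightly these genes were gathered. Jchain was in 539 cells of WT-ND, or 0.084 of the 6432 expected, and its ratio was 0.067 in SP-ND but 0.20 for WT-HFD and 0.24 for SP-HFD. Igha ranged from 0.028 in SP-ND to 0.44 in SP-HFD, and Igkc from 0.046 to 0.55 in the same libraries. Mzb1 ran from 0.071 in SP-HFD to 0.34 in SP-ND. Where a gene had many UMIs nearly every cell was expected to hold 1 (all 7020 for Igkc in SP-HFD). For Jchain, Igha and Igkc in the HFD libraries the ratio is thus close to the share of cells with a UMI. It is not set against that of sparser genes.

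**Figure D2:**
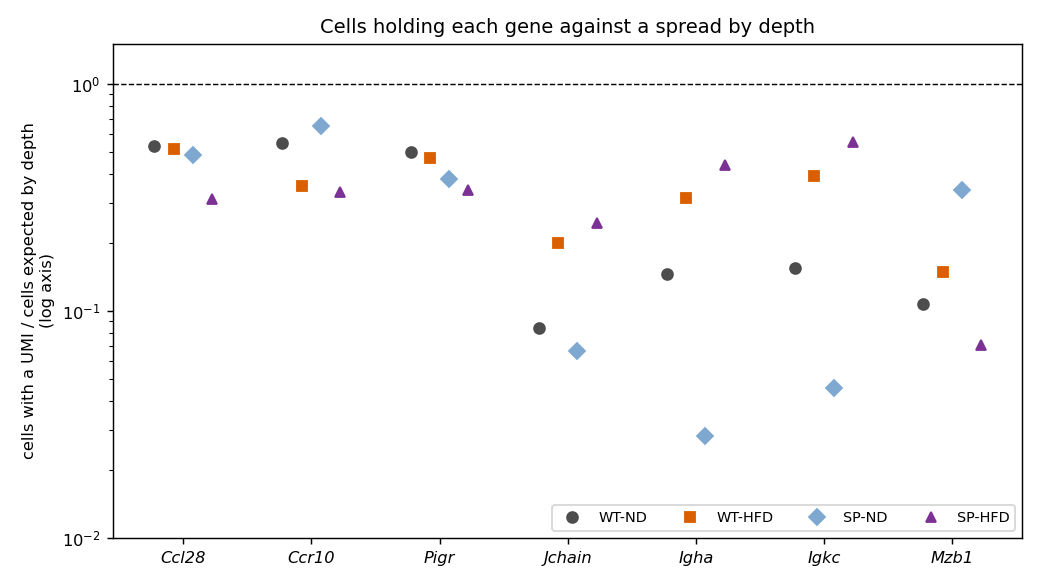
Number of cells with at least 1 UMI of a gene, divided by the number expected if its UMIs followed cell depth alone (log axis), 1 point per library, with a dashed line at 1. All points lie below 1, and those of Jchain lie between 0.067 and 0.24.

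Ccl28 came mainly from the proximal tubule, the first and most absorptive part of the nephron tubule. Its clusters, with 2190 cells of WT-ND, 1041 of SP-ND, 1230 of WT-HFD and 659 of SP-HFD, held 82.9% and 83.6% of Ccl28 UMIs on ND in WT and SP and 64.7% and 86.0% on HFD. Within these clusters Ccl28 went from 44.6 CPM (41.9 to 47.5) to 283 (275 to 292) with HFD in WT, and from 7.90 (6.54 to 9.47) to 278 (267 to 289) in SP. SP-HFD and WT-HFD had a log2 ratio of -0.03 here (-0.10 to 0.05), whereas over all cells it was -0.88.

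The HFD to ND log2 ratio of Ccl28 in the proximal tubule was 2.67 in WT (2.57 to 2.77) and 5.14 in SP (4.87 to 5.42). There, 4.93% of 12023 genes with at least 20 UMIs were over 2-fold higher in WT-HFD, and 4.67% of 11420 in SP-HFD. Between the ND libraries it was -2.50 (-2.79 to -2.22), beside 1.85% of 11900 genes over 2-fold lower in SP. Between the HFD libraries, 1.47% of 11530 genes were over 2-fold lower in SP, and Ccl28 was not among them.

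At a resolution of 1.0 the clusters separated S3, the straight end of the proximal tubule, from S1 and S2. Ccl28 was mainly in S3, where it went from 85.6 to 538 CPM with HFD in WT and from 16.8 to 558 CPM in SP. In S1 and S2 it went from 6.32 to 110 CPM and from 0.75 (6 UMIs) to 91.4 CPM. Cells outside the proximal tubule held 6.96 CPM in WT-ND and 0.72 in SP-ND, so the ND levels of S1 and S2 lay at this background and their ratios are not given. On HFD the cells outside held 55.0 CPM in WT and 10.8 in SP, below the S1 and S2 levels. In S3, WT-HFD stood above WT-ND by a log2 ratio of 2.65 (2.55 to 2.76).

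In S3, Ccl28 was found in 312 of 855 cells of WT-ND and 344 of 431 of WT-HFD, and in 40 of 417 cells of SP-ND and 178 of 268 of SP-HFD. With every cell thinned to 1000 UMIs, which left out 1 to 4 cells per library, these shares were 7.09% and 35.3% in WT and 1.39% and 31.8% in SP. Podocytes, the filtration cells of the glomerulus, were taken as a class that should lack Ccl28. Their thinned shares were 0.47% and 3.27% in WT and 0.053% and 1.27% in SP, with 12 to 59 cells left out, so S3 lay above this background in every library. Median depths were 11324.5 to 16620 UMIs in S3 and 3418 to 6655.5 in podocytes. Podocytes with Ccl28 numbered 0.96 to 1.02 times the expectation from depth, and S3 cells 0.42 to 0.84 times.

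More S3 cells held Ccl28 on HFD, and they held more of it. Cells with 5 or more Ccl28 UMIs made up 6.78% of S3 in WT-ND and 44.5% in WT-HFD, and 1.20% in SP-ND and 40.7% in SP-HFD. No S3 cell of an ND library held 20 or more, against 58 cells in WT-HFD and 25 in SP-HFD. The highest count was 17 in WT-ND and 16 in SP-ND, against 52 for WT-HFD and 49 for SP-HFD. The top cell of SP-ND alone held 11.4% of the Ccl28 UMIs of that library.

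The unnamed cluster of WT-HFD also held a part of the Ccl28 of that library. It came from the clustering without integration, and the proximal tubule clusters above from the integrated one. Both sets may thus share cells, and their shares need not add up. The 2914 WT-HFD cells of the unnamed cluster, of 8947 in the library, had Ccl28 at 146 CPM (140 to 152) and 31.7% of the UMIs of the gene. Pooled over the cluster, Lrp2 of the proximal tubule was at 356 CPM and Umod of the thick ascending limb at 1875. Slc26a4 of type B intercalated cells was at 69.4. In WT-HFD cells outside the plasma cells with under 10 Igkc UMIs, these genes were at 356, 2997 and 65.7. That set shares 2255 cells with the cluster. Whether a single cell held several of these markers was not tested. The class named type B intercalated cell had 837 WT-HFD cells and Ccl28 at 65.4 CPM at a resolution of 0.5, but 188 cells and 13.0 CPM at 1.0, against 1.07 to 7.47 CPM in the other libraries at 0.5. The part of these cells in the WT-HFD level was not tested.

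**Figure D3:**
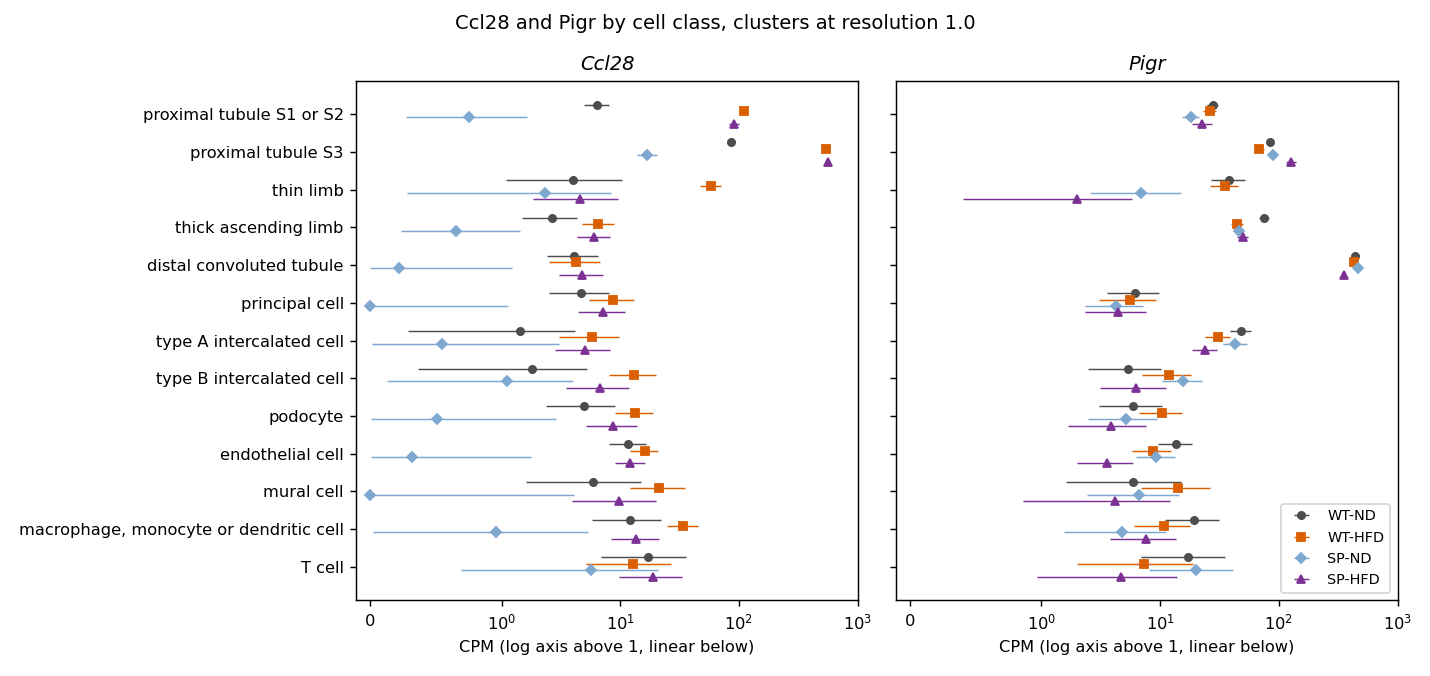
Ccl28 and Pigr in CPM (log axis above 1, linear below) by cell class at a resolution of 1.0, 1 point per library with its 95% Poisson interval. Ccl28 is highest in proximal tubule S3 (538 CPM for WT-HFD and 558 for SP-HFD), and Pigr is highest in the distal convoluted tubule (353 to 464 CPM).

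Pigr was carried by another part of the nephron. The distal convoluted tubule, which adjusts salt reabsorption through the cotransporter encoded by Slc12a3, held 49.3% to 61.7% of the Pigr UMIs of each library. Its cluster led by Pvalb, with Slc12a3 and Trpm6, stood at 616 CPM in WT-ND (588 to 644) and 708 in SP-ND (678 to 740), and at 548 in WT-HFD (523 to 574) and 467 in SP-HFD (446 to 489). The other cluster of this class, led by Slc8a1, S100g and Calb1, held 26.7 to 43.2 CPM. Podocytes held 3.89 to 9.52 CPM.

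In the Pvalb-led cluster, Pigr was found in 343 of 526 cells of WT-ND and 188 of 331 of WT-HFD, and in 269 of 391 cells of SP-ND and 252 of 462 of SP-HFD. Thinned to 1000 UMIs, the shares were 35.0% and 30.0% in WT and 37.4% and 25.3% in SP. Its HFD to ND log2 ratio was -0.17 in WT (-0.26 to -0.08) and -0.60 in SP (-0.69 to -0.51). Pigr was thus lower on HFD in its main source in both genotypes, by under 2-fold.

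S3 was the class in which Pigr and Ccl28 lay together. Pigr in S3 was at 83.8 CPM in WT-ND and 88.7 in SP-ND, and at 68.1 in WT-HFD and 127 in SP-HFD. The log2 ratio of HFD to ND had opposite signs, at -0.30 in WT (-0.47 to -0.13) and 0.52 in SP (0.34 to 0.70). The Cyp7b1-led cluster gave 17 S3 cells of SP-ND and 53 of SP-HFD, and its part in these ratios was not tested. Pigr was also found in the thick ascending limb, at 75.0 CPM in WT-ND and 44.9 to 49.9 elsewhere, and in acid-secreting type A intercalated cells, at 24.1 to 48.7 CPM.

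Plasma cells, the antibody-secreting end stage of B cells, were clustered and named without the 7 genes or any immunoglobulin gene among the features and markers. The removal of doublets and the scaling to total UMIs before clustering drew on all genes. The plasma cells came from a cluster of 342 cells that mixed them with urothelium, the lining of the renal pelvis, and that was split further. The 204 plasma cells were led by Slpi, Tnfrsf17 and Derl3. They numbered 33 in WT-ND and 63 in WT-HFD, but 1 in SP-ND and 107 in SP-HFD. A further 97 cells with markers of both types were left unnamed, and 66 of them were in WT-HFD.

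As a share of kept cells, plasma cells went from 0.33% (Clopper-Pearson interval 0.23% to 0.47%) to 0.70% (0.54% to 0.90%) with HFD in WT. In SP they went from 0.016% (0.00040% to 0.087%) to 1.52% (1.25% to 1.84%). Urothelial cells also differed, at 4 and 16 in WT and 6 and 15 in SP on ND and HFD, and their part in the plasma cell counts was not tested. B cells were 0.54% of WT-ND and 0.48% of WT-HFD, and T cells 2.37% and 1.90%. No class of natural killer (NK) cells was named, and the T cell class may include them. In SP both were higher on HFD, with B cells at 0.58% on ND and 0.78% on HFD and T cells at 2.33% and 3.38%. More cells of a type in digested tissue cannot be told apart from a change in the kidney.

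The plasma cells were almost all IgA kappa cells. Igha was the highest heavy chain in all 33 cells of WT-ND, 62 of 63 of WT-HFD, the 1 cell of SP-ND and all 107 of SP-HFD, and the exception had Ighm, the heavy chain of IgM. Igkc was the highest light chain in all but 2 plasma cells of SP-HFD, which had the lambda chain Iglc1. The library had 16886 Iglc1 UMIs, against 80 in SP-ND.

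Within plasma cells, the share of Igha was alike across libraries. Igha was at 115464 CPM in WT-ND and 120138 in WT-HFD, a log2 ratio of 0.06. It was at 114722 in the 1 cell of SP-ND and 119227 for SP-HFD, and no diet ratio is read from that cell. Jchain was at 76311 and 90473 in WT and 62087 and 95273 in SP. By contrast, plasma cells of WT-ND were shallower, with a median of 7024 UMIs against 17775 in WT-HFD and 13383 in SP-HFD.

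Per plasma cell, Jchain had a median of 528 UMIs in WT-ND, with a range of 118 to 1144. The median was 1562 in WT-HFD (227 to 2872) and 1331 in SP-HFD (60 to 2859). In SP-ND, the 1 cell held 1005 of 1066 Jchain UMIs, 1857 of 1899 Igha UMIs and 7584 of 8307 Igkc UMIs. The SP-ND values of these 3 chains thus rested almost wholly on 1 cell, and without the top cell of each library the SP log2 ratio of HFD to ND for Jchain was 11.29 in place of 7.19.

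Kappa variable genes, joined to Igkc in each B cell lineage, differed between plasma cells. With at least 10 UMIs of a single Igkv gene required, 29 cells of WT-ND had 18 different leading genes, 62 of WT-HFD had 29 and 103 of SP-HFD had 44. The most frequent was Igkv10-96 in WT-ND (3 cells), Igkv1-117 in WT-HFD (7 cells) and Igkv6-15 in SP-HFD (13 cells). Variable genes resemble one another, so reads may have been placed on a near copy and these counts are uncertain.

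Ccr10 was found in 19 of 33 plasma cells of WT-ND, 57 of 63 of WT-HFD, the 1 cell of SP-ND and 90 of 107 of SP-HFD, with at most 12 UMIs in a cell. Plasma cells held 80.4% of Ccr10 UMIs in WT-ND, 72.8% in WT-HFD and 85.0% in SP-HFD, but 1 of 20 UMIs (5.00%) in SP-ND. Its plasma cell level was 174 CPM in WT-ND and 236 in WT-HFD, a log2 ratio of 0.44 whose interval includes 0 (-0.04 to 0.95), and 232 in SP-HFD. No level is read from the single UMI of the SP-ND plasma cell.

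Ccr10 was also found in the class named T cell. Its cluster was led by Trbc2 and Cd3g but also by the NK cell markers Nkg7 and Gzma, so these cells may not all be T cells. A Ccr10 UMI was in 0 of 235 T cells of WT-ND, which allows a share of up to 1.28% for cells with a UMI, not for cells that express the gene, and in 15 of 170 of WT-HFD, 2 of 149 of SP-ND and 20 of 237 of SP-HFD. T cells of WT-ND had the lowest median depth, with 1547 UMIs against 2468 to 2830 in the other libraries. The highest counts in a T cell were 11 for WT-HFD, 8 for SP-ND and 3 for SP-HFD, and the SP-ND cell held 40.0% of all Ccr10 UMIs of its library. B cells had no UMI in any library, which allows up to 5.45% to 8.11% of cells with a UMI at median depths of 1268.5 to 2515 UMIs, and podocytes had single UMIs in 3 of 347 cells of WT-HFD and 2 of 334 of SP-HFD. In WT-HFD, 14 of 837 cells of the type B intercalated class and 20 of 2769 unnamed cells also held Ccr10, with 16 and 24 UMIs against 40 in T cells.

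Mzb1 was shared by plasma cells and B cells, which are also known to make it. Plasma cells held 84.5% to 95.5% of its UMIs in WT-ND, WT-HFD and SP-HFD and 49.5% in SP-ND. B cells stood at 284 to 468 CPM and held 35.8% of the Mzb1 UMIs of SP-ND.

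Antibody RNA in other cells was of 2 kinds, thin and even or patchy. The thin kind was seen in podocytes, which held Igkc at 32.0 CPM in WT-ND and 3.07 in SP-ND, against 76.2 for WT-HFD and 144 for SP-HFD. Their number with a UMI was 0.82 to 1.10 times that expected from depth, and their level ranked the libraries as the whole library level did.

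The patchy kind belonged mainly to WT-HFD. Outside the plasma cells, 785 cells of WT-HFD held 10 or more Igkc UMIs, against 22 of WT-ND, 23 of SP-ND and 56 of SP-HFD. B cells, which make Igkc themselves, were 22 of the 23 such cells of SP-ND, 12 of the 22 of WT-ND and 38 of the 56 of SP-HFD, but 27 of the 785 in WT-HFD. Of these 785, 659 lay in the unnamed WT-HFD cluster. Outside the plasma cells of WT-HFD, 630 cells held 2 to 3 Igkc UMIs, 67 held 4 to 9 and 502 held 10 to 99. These ranges differ in width, so the counts do not show separate groups of cells.

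In the unnamed cluster, antibody genes and other plasma cell genes were present in proportions near those of plasma cells. It held 1.57 Igha and 5.21 Igkc UMIs per Jchain UMI, against 1.25 to 1.51 and 4.20 to 4.51 in plasma cells of the 3 libraries with more than 1. For every 1000 Jchain UMIs there were 42.7 of Mzb1, 3.67 of Derl3 and 2.27 of Ccr10, against 37.9 to 42.2, 2.61 to 3.27 and 2.28 to 2.61 in plasma cells. Jchain itself was at 839 CPM in the cluster and 90473 in plasma cells of WT-HFD.

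**Figure D4:**
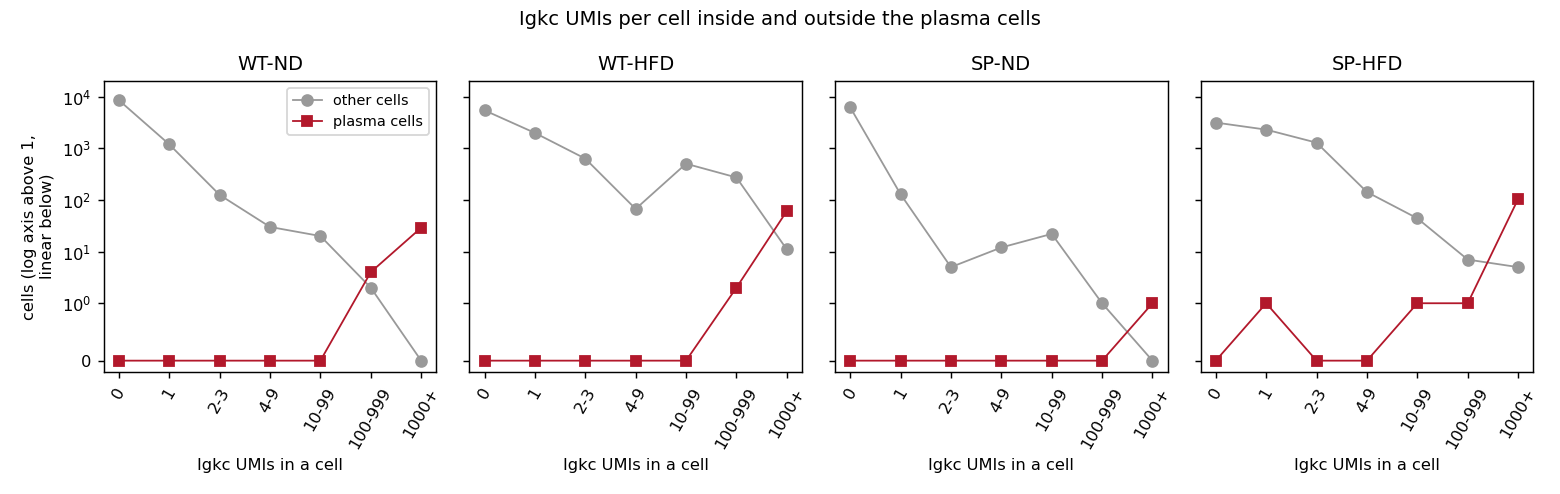
Number of cells (log axis above 1, linear below) by Igkc UMIs per cell in each library, for plasma cells (red squares) and all other cells (grey circles). The ranges of UMIs differ in width. In WT-HFD, 502 cells outside the plasma cells hold 10 to 99 UMIs and 67 hold 4 to 9. In the other libraries 20 to 44 cells hold 10 to 99.

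A list of 54 genes of homing, transport, antibody chains, plasma cell factors, and survival or class switch signals was read beside the 7. With at least 20 UMIs, 23 of 47 were over 2-fold higher in WT-HFD than in WT-ND and 0 lower, and 25 of 48 were higher in SP-HFD than in SP-ND and 1 lower. Over all genes, 5.89% and 6.63% were past 2-fold in either direction. The median log2 ratio of the list was 0.86 in WT and 1.02 in SP, against 0.02 and 0.09 over all genes. Without the 7 genes, 17 of 40 were higher in WT and 19 of 41 in SP. The list was drawn up with earlier results of these libraries known.

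Antibody chains led the list, with 12 of 13 over 2-fold higher in WT-HFD and 10 of 12 in SP-HFD. Without Igha, Jchain and Igkc, which were selected on these contrasts, the counts were 9 of 10 and 7 of 9. The SP counts are set against SP-ND, which had 1 plasma cell. The lambda chain Iglc2 had log2 ratios of 2.58 in WT and 5.18 in SP. Ighm was at 2.35 in WT but 0.62 in SP. It was the highest heavy chain in 1 plasma cell of WT-HFD, and the part of that cell in the WT value was not tested. Chains with 0 UMIs in an ND library (Ighg1 and Ighe in WT, Ighg2c and Ighe in SP) are counted as higher and remain past 2-fold against a floor of 3 counts per library.

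Among the chemokine ligands of the list, Ccl28 was past 2-fold and Ccl27a, Ccl25 and Cxcl12 were not. Ccl28 was selected on these contrasts, so this does not set it apart. Ccl27a, the other ligand of Ccr10, was at 0.45 in WT and 0.77 in SP, and Ccl25, the ligand of the gut-homing receptor Ccr9, at -0.10 and -0.05. The receptors Ccr9 (1.76 and 1.34) and Cxcr4 (1.17 and 1.24) and the mucosal integrin chain Itgb7 (1.04 and 1.38) were over 2-fold higher in both genotypes.

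Of plasma cell factors, Mzb1, Irf4 (1.89 in WT and 2.03 in SP), Derl3 (1.91 and 4.07) and Tnfrsf17 (1.50 and 4.81), a survival receptor, passed 2-fold in both genotypes. Prdm1 (1.13) and Txndc5 (1.03) passed it in SP only. Xbp1, used by many secretory cells, was at 0.51 and 0.60. Of survival and class switch signals, 2 of 9 were over 2-fold higher in WT and 4 of 11 in SP. Tnfrsf13b (1.07 and 1.70) and Tnfrsf13c (1.01 and 2.44) were higher in both genotypes. Il6 (1.02) and Il10 (3.74) were higher in SP, with 10 and 2 UMIs in SP-ND. Tnfsf13, a ligand of Tnfrsf17, was at 0.23 and 0.58. The 1 list gene over 2-fold lower in SP-HFD was Aldh1a1, an enzyme of retinoic acid synthesis, at -1.80, with -0.94 in WT. No transport gene passed 2-fold with diet.

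From WT-ND to SP-ND, 12 of 42 list genes were over 2-fold lower and 0 higher, beside 4.99% of all genes past 2-fold. These were Ccl28, Ccr10, 6 antibody chains, 3 plasma cell factors and Fcamr, an Fc receptor for IgA and IgM, at -1.25. Without the 7 genes, which were selected on these contrasts, 6 of 35 were lower and 0 higher. From WT-HFD to SP-HFD, 7 of 49 were higher and 2 lower, beside 4.25% of all genes past 2-fold. Scaled by the median ratio of genes, 4 were higher and 3 lower. Iglc1, at 3.43, was among the higher and Ighm, at -1.25, among the lower. Iglc1 was the highest light chain in 2 plasma cells of SP-HFD, and Ighm the highest heavy chain in 1 of WT-HFD. The part of these cells in both values was not tested.

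**Figure D5:**
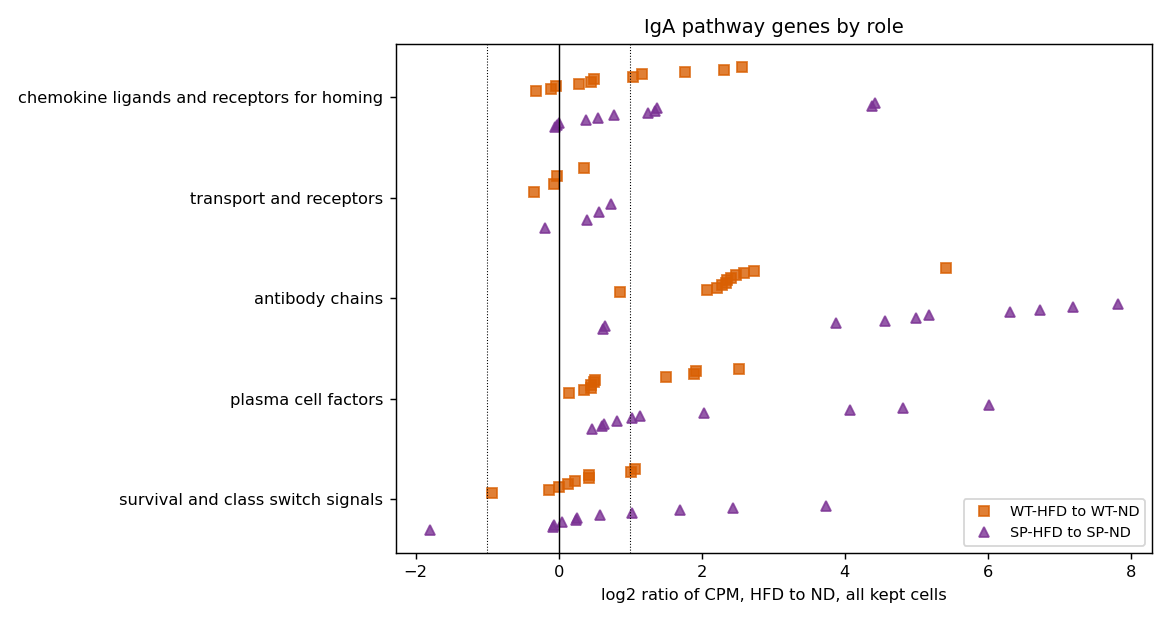
Log2 ratio of CPM, HFD to ND, for list genes with at least 20 UMIs over both libraries, by role, in WT (orange squares) and SP (purple triangles). Dotted lines mark 2-fold, and genes with 0 UMIs in a library are not drawn. Antibody chains lie furthest to the right, and the transport genes, with Pigr at -0.34 and -0.19, stay within 2-fold.

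Over 56 units of cell class and library with at least 50 cells, the genes whose log2(CPM + 1) was most like that of Ccl28 were Pck1 (Pearson r = 0.87), Dnase1 (0.85), Acat3 (0.80), Car3 (0.80) and Eci3 (0.79), among 14324 genes. Pck1 encodes an enzyme of gluconeogenesis, which proximal tubule cells perform. For Pigr they were Afm (0.85), Selenbp1 (0.76), Uroc1 (0.75), Acat1 (0.74) and Coq8a (0.74). The units share libraries and depth, so these values are a description. Dnase1, Car3 and Pck1 were also among the leading genes of the unnamed WT-HFD cluster. Pck1 went from 290 to 1264 CPM with HFD in WT and from 205 to 980 in SP, and Afm stayed between 14.8 and 15.9 CPM.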

How the data were processed

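The authors made the libraries with 10x Chromium 3′ kits, counted UMIs per gene and barcode with Cell Ranger, and deposited the counts without normalization. The submitters' processing notes name version 2.1.1 and mm10, while the file headers and the study's methods each name another version. Between 13229 and 16385 barcodes per library were deposited, each with at least 500 UMIs.

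Cells with 200 to 5000 genes and under 50% mitochondrial UMIs were kept, which removed 32.7% to 49.8% of barcodes per library for mitochondrial UMIs alone. Doublets were scored against simulated doublets, and 0.8% per 1000 cells (365 to 945 cells) were removed. Cells were integrated by CCA (2000 features, 50 dimensions) and clustered at a resolution of 0.5 in Seurat 5.3.0 (R 4.3.3, with Matrix 1.6.5 and SeuratObject 5.2.0). Clustering features excluded the 7 genes and all immunoglobulin genes. No annotation of cells was used, and clusters were named from marker lists (mean log2 ratio of at least 1, at least 3 markers detected). No other class could have more markers among the 10 leading genes of the cluster. Shallow clusters with no marker of their class among those 10 were left unnamed. Clusters named as erythroid or cycling cells were counted as unnamed. The naming limits, and the split of the cluster that mixed plasma cells and urothelium, were decided on after looking at the clusters.

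Counts were pooled per library and class and scaled to CPM with exact Poisson intervals. Ratios have exact conditional binomial intervals and shares Clopper-Pearson intervals, at 95%. With 1 library per condition no test was run. The expected number of cells with a UMI was computed from cell depths. The named genes include the 7 and the pathway list, which has counts and values for a part of its genes. Those values are of genes past 2-fold or with the most UMIs in a role, and of ligands that did not pass. The 5 genes most like Ccl28 and Pigr, among those with at least 10 CPM in a unit, are also named. The members and lists were chosen with earlier results of these data known. The remaining work was done in Python 3.11.15 with scipy 1.17.1, numpy 2.4.6, matplotlib 3.10.9 and pandas 2.3.3, and the scripts were tested on simulated data. Other filters, scalings, clusterings, minimum counts and pseudocounts were tried. The promoter of Mzb1 is not reported here.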

Additional observations from a re-analysis of the deposited data

Results flagged for a closer look

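The genotype ratio had opposite signs on the 2 diets for 5 genes, with SP-ND below WT-ND and SP-HFD above WT-HFD. On the log2 scale, SP to WT stood at -1.22 on ND and 0.65 on HFD for Ccr10, -4.00 and 0.79 for Jchain, -3.83 and 0.68 for Igha, -3.20 and 0.63 for Igkc, and -2.81 and 0.69 for Mzb1. Without immune and plasma cells the HFD values turned negative for all 5, at -1.06, -1.23, -0.88, -1.66 and -1.48 in the same order, and as a mean over cells the HFD value of Igkc was -0.013. The difference between diets was not tested, since each condition has 1 library.

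Barcodes left out by the limits on genes and mitochondrial UMIs (5300 to 7292 per library) entered no comparison except those with every deposited barcode. Genes were flagged here when their HFD interval lay above their ND interval in these barcodes, so the direction was set by the rule. Ccl28 was at 87.0 CPM in WT-HFD against 12.2 in WT-ND, and at 46.5 in SP-HFD against 1.13 in SP-ND. Jchain was at 94.4 against 9.03 in WT and 46.6 against 0.98 in SP. Igha stood at 166 against 21.6 and 119 against 0.91, Igkc at 397 against 24.0 and 194 against 4.10, and Mzb1 at 4.72 against 0.53 and 3.65 against 0.17. Pigr and Ccr10 were not flagged. Pigr was lower on HFD, at 25.1 against 29.8 in WT and 22.8 against 24.4 in SP. Ccr10, with at most 17 UMIs in a library, had overlapping intervals.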

How the results depend on the processing

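No paired analysis was possible because each condition has 1 library. Of 252 recomputed ratios of the 7 genes, 239 kept their sign. Of the 13 that did not, 6 were of Pigr between genotypes (-0.14 to 0.18). Without immune and plasma cells, Ccr10 in SP-ND against WT-ND turned to 0.29, and SP-HFD against WT-HFD turned to -1.06 for Ccr10, -1.23 for Jchain, -0.88 for Igha, -1.66 for Igkc and -1.48 for Mzb1. Igkc there was -0.013 as a mean over cells. Without immune and plasma cells, Ccr10 in SP-HFD against SP-ND was 1.03 in place of 4.42. With every deposited barcode, the log2 ratio of HFD to ND for Ccl28 was 2.48 in WT and 4.82 in SP, for Jchain 2.52 and 7.42, and for Pigr -0.017 in SP, and Ccl28 in SP-ND against WT-ND was -3.29. Under 30% mitochondrial UMIs, Ccl28 was -3.28 in SP-ND against WT-ND and -0.99 in SP-HFD against WT-HFD, Pigr -0.60 in SP, and Jchain 2.31 in WT and 6.66 in SP. As a mean over cells, Ccl28 was 2.18 in WT and -1.07 in SP-HFD against WT-HFD, Pigr -0.59 in WT and -0.40 in SP, and Jchain 2.16 and 6.997. With size factors, Ccl28 was -1.06 in SP-HFD against WT-HFD and Pigr -0.28 in SP, and on UMIs outside the mitochondrial genome Pigr was -0.31 and Jchain 7.08 in SP. Without immune and plasma cells, Pigr was -0.11 in SP and Jchain 4.71 in WT and 6.71 in SP. Jchain in WT was 2.38 with at least 1000 UMIs per cell and 2.60 with doublets kept, and without the top cell it was 2.47 in WT and 11.29 in SP. The cause of these shifts was not tested. In SP-HFD against WT-HFD, 4 list genes were higher and 3 lower with size factors, and 1 was lower with at least 100 UMIs. Cells with 100 or more Jchain UMIs, a count chosen after seeing the data, numbered 90 in WT-HFD among kept cells and 112 among all barcodes, against 63 plasma cells. With a pseudocount of 10, Pck1 and Afm remained the genes most like Ccl28 and Pigr (r = 0.91 and 0.90). Eci3 then left the 5 genes most like Ccl28, and Selenbp1, Acat1 and Coq8a left the 5 most like Pigr. Ccr10 had only 51 and 20 UMIs on ND.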
